A study of Homo sapiens with 6 samples.

Results

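Nascent RNA was followed for 10 target genes of the transcription factor p53: CDKN1A, BTG2, MDM2, TP53INP1, GDF15, RRM2B, XPC, SESN1, FDXR and BAX. They are 10 of the 22984 genes counted on their own strand in each library. The genes were chosen by name as well-known p53 targets after results from all 6 libraries had been seen, and the values that bear on that choice are the fold changes against DMSO given below. Levels and fold changes of the 10 genes are therefore a description, and no test was run on them. The cells were HCT116, an established human colorectal carcinoma line, and the study asked which genes respond when GSTO1, a glutathione transferase, is silenced or inhibited. RNA made during the last 30 min of each treatment was labelled with bromouridine, captured with an antibody and sequenced (Bru-seq). Of the 6 libraries, 2 came from cells given DMSO at 0.01% for 4 h. For C1-27, a GSTO1 inhibitor, 1 had 1 μM for 4 h and 1 had 1 μM for 24 h. Another had C1-14, an analogue that the study treats as inactive, at 10 μM for 4 h. The last had GSTO1 siRNA (siGSTO1) at 10 nM for 24 h. The DMSO libraries are called cultures 1 and 2, but no source says whether they were grown apart. Their difference may thus not be a spread between separate cultures. Every treatment thus had 1 library, and no culture kept in DMSO for 24 h or given a non-targeting siRNA was analysed here. For the 24 h treatments, the agent, the time in culture and, for siGSTO1, the transfection cannot be told apart.

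The p53 protein is a tetramer that binds paired short DNA elements near its target genes and raises their transcription when cells meet DNA damage or other stress. In unstressed cells MDM2, itself a p53 target, tags p53 for destruction, so that the pathway carries its own brake. The targets fall into arms that stop the cell cycle, repair DNA, restrain oxidants, alter metabolism or start apoptosis. In colorectal carcinoma cells that keep a working pathway, arrest through CDKN1A is a well-known outcome of p53 activation.

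The 6 libraries held between 18112861 and 36841146 estimated counts over genes, and single counts of the 10 genes ran from 32 to 10755. Levels are given as RPKM, reads scaled by gene length and library size, and so can be compared between genes as well as libraries. GSTO1 itself read 3.51 and 3.72 RPKM in the DMSO cultures, 2.70 with siGSTO1, 3.78 with C1-27 at 4 h, 4.21 with C1-27 at 24 h and 3.82 with C1-14. An siRNA acts on mature RNA, so the nascent level, 0.747 of the DMSO mean with siGSTO1, does not check the silencing. Of 6 epithelial markers, 5 were above 0.3 RPKM in every library, with VIL1 below that level, and all 6 markers of immune, fibroblast, endothelial and liver cells stayed under 0.4 RPKM. These ranges overlap: the endothelial marker PECAM1 read 0.374 RPKM in DMSO culture 1, and the epithelial marker CDH1 0.321 with C1-27 at 4 h. In bulk cultures, fewer cells making an RNA and less RNA made per cell cannot be told apart.

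RefSeq promoters (GRCh38.p14, 250 bases before to 50 after each start) were read for 8 of the 10 genes, 14 windows in all. TP53INP1 and RRM2B were not read. The p53 half-site consensus spans 10 bases and is its own reverse complement, so both strands give the same matches. An exact half-site lay in windows of 2 of the 8 genes, FDXR and SESN1, while 8.06% of all genes had a window with one. Several members have more than 1 window. A pair of exact half-sites 0 to 13 bases apart was in no window of the 8 genes and in a window of 0.0366% of all genes. A looser search, set after these matches had been seen, took adjacent half-sites with the core C and G of each intact and at most 3 mismatches in all. It matched windows of 1.37% of all genes, or 1.12% of all 35116 windows, and windows of 4 of the 8 genes, which are shown because they are the members whose promoter windows hold a p53-like pair, with the matched 20 bases in capitals.

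MDM2, chr12:68808907-68809016, plus strand, from -110 to -1 of a downstream start, 2 mismatches: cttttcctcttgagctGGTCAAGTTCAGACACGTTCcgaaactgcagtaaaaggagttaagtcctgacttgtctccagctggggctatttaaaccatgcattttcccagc
SESN1, chr6:109008989-109009098, minus strand, from -110 to -1 of 1 of 3 starts, 3 mismatches: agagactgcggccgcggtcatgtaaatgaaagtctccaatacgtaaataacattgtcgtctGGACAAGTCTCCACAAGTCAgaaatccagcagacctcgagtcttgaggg
FDXR, chr17:74872995-74873104, minus strand, from -110 to -1 of 1 of 2 starts, 3 mismatches: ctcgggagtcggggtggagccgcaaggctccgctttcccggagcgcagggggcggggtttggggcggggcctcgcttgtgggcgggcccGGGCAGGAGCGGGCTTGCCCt
GDF15, chr19:18386178-18386207, plus strand, from +21 to +50, 3 mismatches: acctgcacAGCCATGCCCGGGCAAGAACtc

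The windows of CDKN1A, BTG2, XPC and BAX held no such pair, which says only that these letters are not in these 300 bases. A match is a likeness of letters and not a binding site shown by these data.

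Of the genes that stop the cell cycle, CDKN1A and BTG2 stood highest with siGSTO1 and next highest with C1-27 at 24 h. CDKN1A, which encodes the cyclin-dependent kinase inhibitor p21, lies at chr6:36644237-36655116 (hg19). Its RPKM was 1.18 and 1.32 in the DMSO cultures, 1.53 with C1-27 at 4 h, 1.78 with C1-14, 2.22 with C1-27 at 24 h and 6.79 with siGSTO1. The siGSTO1 library was 5.44-fold above the DMSO mean, and the DMSO cultures differed 1.11-fold from each other. Pooled counts gave a ratio of 5.36, with an exact Clopper-Pearson 95% interval of 4.95 to 5.81 that covers counting error only. All 4 treated libraries lay above both DMSO cultures, and the siGSTO1 library stood far above the rest. BTG2, an antiproliferative cofactor at chr1:203274664-203278729, read 0.988 and 1.13 RPKM in DMSO, 1.24 with C1-27 at 4 h, 1.26 with C1-14, 1.79 with C1-27 at 24 h and 3.46 with siGSTO1. It was 3.27-fold above the DMSO mean with siGSTO1 and 1.69-fold with C1-27 at 24 h, against a 1.15-fold difference of the DMSO cultures. Its order of libraries was that of CDKN1A, apart from C1-27 at 4 h and C1-14 lying almost level.

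MDM2 and TP53INP1 encode regulators of p53 itself, MDM2 as its ubiquitin ligase and TP53INP1 as a stress protein that works with p53 and in autophagy. MDM2, at chr12:69201971-69239212, was the member with the highest level, at 4.79 and 5.20 RPKM in DMSO, 5.50 with C1-27 at 4 h, 5.97 with C1-14, 6.28 with C1-27 at 24 h and 8.75 with siGSTO1. It was 1.75-fold above the DMSO mean with siGSTO1 and 1.26-fold with C1-27 at 24 h, where the DMSO cultures differed 1.09-fold. The order of libraries was that of CDKN1A, over a narrower range. TP53INP1, at chr8:95938200-95961615 on the minus strand, read 0.113 and 0.276 RPKM in DMSO, 0.242 with C1-27 at 4 h, 0.314 with C1-14, 0.553 with siGSTO1 and 0.584 with C1-27 at 24 h. It was 2.84-fold above the DMSO mean with siGSTO1 and 3.00-fold with C1-27 at 24 h, but the DMSO cultures themselves differed 2.44-fold. Against cultures 1 and 2 taken singly, the ratio was 4.88 and 2.00 with siGSTO1 and 5.16 and 2.11 with C1-27 at 24 h. Both 24 h libraries lay above all 4 h libraries, about level with each other, and TP53INP1 was the member for which siGSTO1 was not the highest library.

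TP53INP1 also differed from the other members in its antisense reads. Antisense counts over the gene were 357 and 533 in DMSO, 384 with C1-27 at 4 h, 378 with C1-14, 377 with C1-27 at 24 h and 203 with siGSTO1, beside sense counts of 62, 264, 219, 255, 630 and 340. In RPKM, antisense exceeded sense in every 4 h library and was below it in both 24 h libraries. Antisense reads made up 55.8% of the reads over TP53INP1 across the libraries and at most 3.98% over each of the other 9 genes. No other gene row overlaps TP53INP1 on either strand. The labels say that only some libraries of the protocol keep strand, and how fully sense and antisense were separated was not tested.

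**Figure D1:**
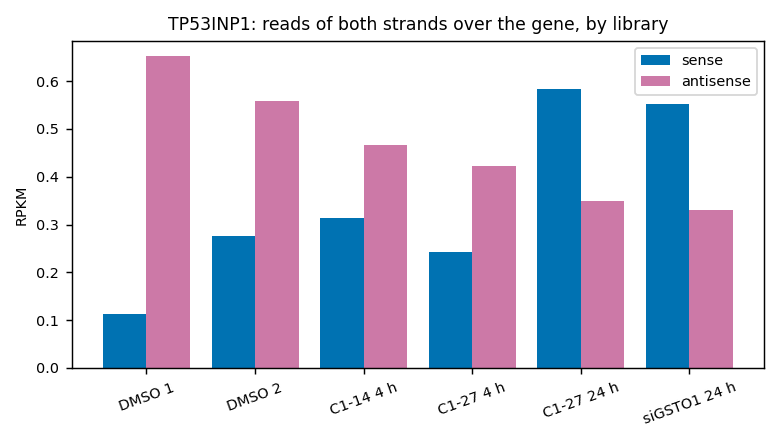
RPKM over TP53INP1 on its own strand (blue) and on the opposite strand (pink) in each of the 6 libraries. Antisense bars are the taller in DMSO, C1-14 and C1-27 at 4 h, and sense bars in C1-27 at 24 h (0.584 RPKM) and siGSTO1 (0.553 RPKM).

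GDF15, a secreted stress cytokine of the TGF-beta superfamily, had the largest fold of the 10 genes. At chr19:18496968-18499986 it read 0.458 and 0.409 RPKM in DMSO, 0.388 with C1-27 at 4 h, 0.572 with C1-14, 1.61 with C1-27 at 24 h and 3.78 with siGSTO1. These levels rest on 32, 49, 44, 58, 218 and 293 counts. The 4 h libraries were close together and the 24 h libraries stood well above them. It was 8.73-fold above the DMSO mean with siGSTO1 and 3.71-fold with C1-27 at 24 h, where the DMSO cultures differed 1.12-fold. The siGSTO1 ratio of pooled counts was 8.86, with a counting interval of 6.89 to 11.5. The short row of MIR3189 lies within GDF15, so reads there cannot be assigned to the microRNA or its host alone.

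With siGSTO1, the members of the repair and oxidant arms had smaller folds than CDKN1A, BTG2, TP53INP1 and GDF15, though not all were under that of MDM2. RRM2B, a ribonucleotide reductase subunit that supplies nucleotides for DNA repair, lies at chr8:103216729-103251346 and read 1.03 and 1.20 RPKM in DMSO, 1.26 with C1-27 at 4 h, 1.41 with C1-14, 1.62 with C1-27 at 24 h and 2.13 with siGSTO1. It was 1.92-fold above the DMSO mean with siGSTO1 and 1.46-fold with C1-27 at 24 h, beside a DMSO difference of 1.17-fold. RRM2B thus kept the library order of CDKN1A. SESN1, a sestrin that restrains oxidants and mTORC1, lies at chr6:109307640-109415708 and is the longest member at 108 kb. It read 0.285 and 0.352 RPKM in DMSO, 0.355 with C1-27 at 4 h, 0.350 with C1-14, 0.437 with C1-27 at 24 h and 0.543 with siGSTO1, 1.71-fold above the DMSO mean. Every 4 h treated value lay at or near the upper DMSO culture. XPC, which recognizes damage in nucleotide excision repair, lies at chr3:14186648-14220172 and read 1.42 and 1.32 RPKM in DMSO, 1.34 with C1-27 at 4 h, 1.35 with C1-14, 1.42 with C1-27 at 24 h and 1.61 with siGSTO1. Its siGSTO1 fold was 1.17, the smallest of the 10, and the other treated libraries were within or at the edge of the DMSO values.

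FDXR and BAX, a mitochondrial electron donor and a pore-forming BCL2 family protein that starts apoptosis, were, like TP53INP1, members whose folds turned on which DMSO culture they were set against. FDXR, at chr17:72858619-72869156, read 1.45 and 0.623 RPKM in DMSO, 0.675 with C1-27 at 4 h, 0.727 with C1-14, 1.03 with C1-27 at 24 h and 1.93 with siGSTO1. It was 1.34-fold above DMSO culture 1 and 3.10-fold above culture 2 with siGSTO1. BAX, at chr19:49458117-49465055, read 1.34 and 0.806 RPKM in DMSO, 0.861 with C1-27 at 4 h, 0.844 with C1-14, 1.13 with C1-27 at 24 h and 1.60 with siGSTO1. Its siGSTO1 ratios were 1.19 and 1.98 against cultures 1 and 2. For both genes culture 1 lay above every other library but siGSTO1, and the 4 h treated libraries lay beside culture 2. With C1-27 at 24 h, FDXR was at 0.714 of culture 1 and 1.66-fold above culture 2, so its ratio of 0.998 to the DMSO mean describes neither culture.

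**Figure D2:**
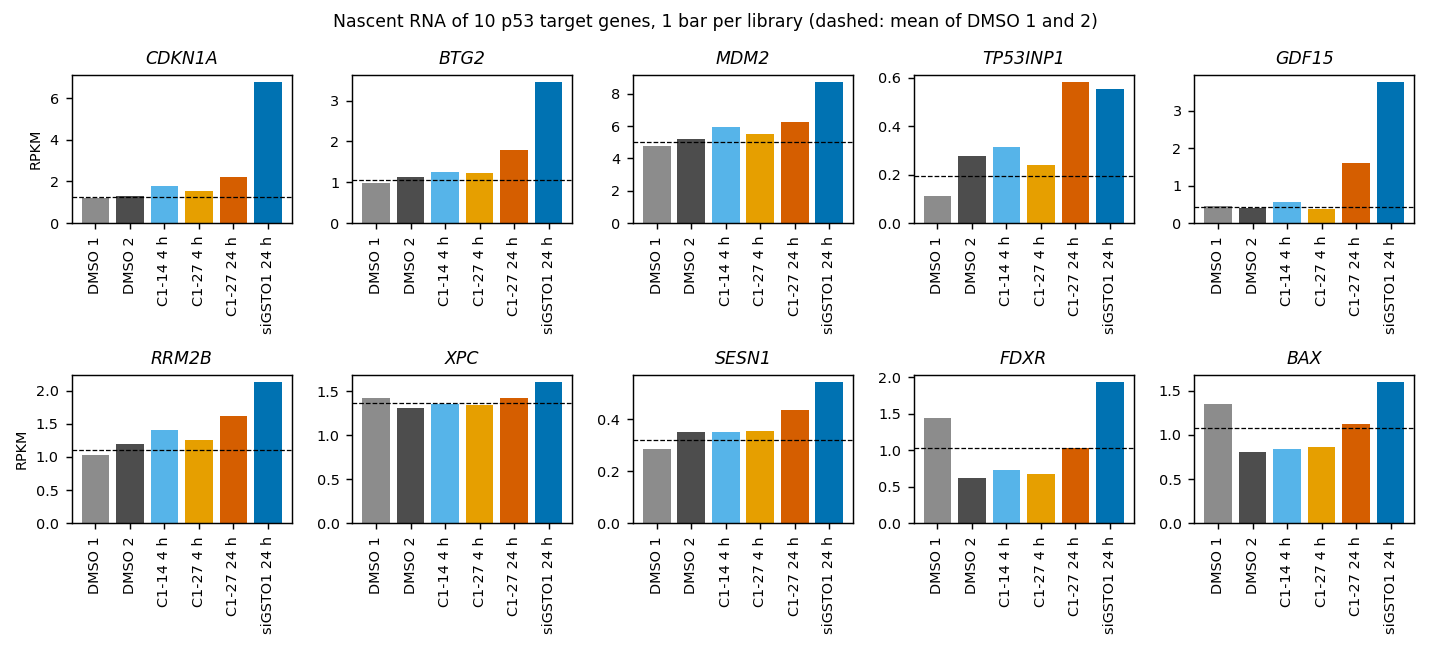
RPKM (linear axes from 0, a scale per gene) of the 10 p53 target genes, with 1 bar per library and a dashed line at the mean of the DMSO cultures. The siGSTO1 bar is the tallest for 9 genes, and DMSO 1 is the next tallest for FDXR and BAX.

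Against the mean of the DMSO cultures, siGSTO1 was 1.4-fold or more higher at 7 of the 10 genes, namely CDKN1A, MDM2, GDF15, BTG2, FDXR, RRM2B and BAX, and lower at 0. The cut-offs of this call are the study's: a gene over 300 bp, a mean RPKM over 0.5 and a fold of 1.4. The use of the mean of both DMSO cultures was chosen here. The filter averages the treated and DMSO levels, so a gene can meet it through a high treated library. GDF15 did so in both 24 h treatments, as its DMSO mean was 0.433 RPKM. Of all genes that met the filter, 10.5% were called higher and 6.48% lower. TP53INP1 and SESN1 were under the RPKM filter, although their folds were 2.84 and 1.71, and XPC passed the filter without reaching 1.4-fold. FDXR and BAX did not reach 1.4-fold against DMSO culture 1 alone. The siGSTO1 library was the highest of the 6 for 9 of the 10 genes and for 21.4% of all genes with a mean RPKM over 0.5. Among the 8 members with such a mean over the 6 libraries, it was the highest for 8. The median log2 fold of the 10 genes, with TP53INP1 and SESN1 included, was 0.92. It was 0.00 over the genes that met the filter and 0.15 over genes taken without the RPKM filter.

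The members also differ in length. The 5 members of 3.02 to 10.9 kb ranged from 1.49-fold to 8.73-fold with siGSTO1, and the 5 of 23.4 to 108 kb from 1.17-fold to 2.84-fold. The label marks only the RNA made in 30 min over the whole gene, and the part of gene length in these folds was not tested.

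**Figure D3:**
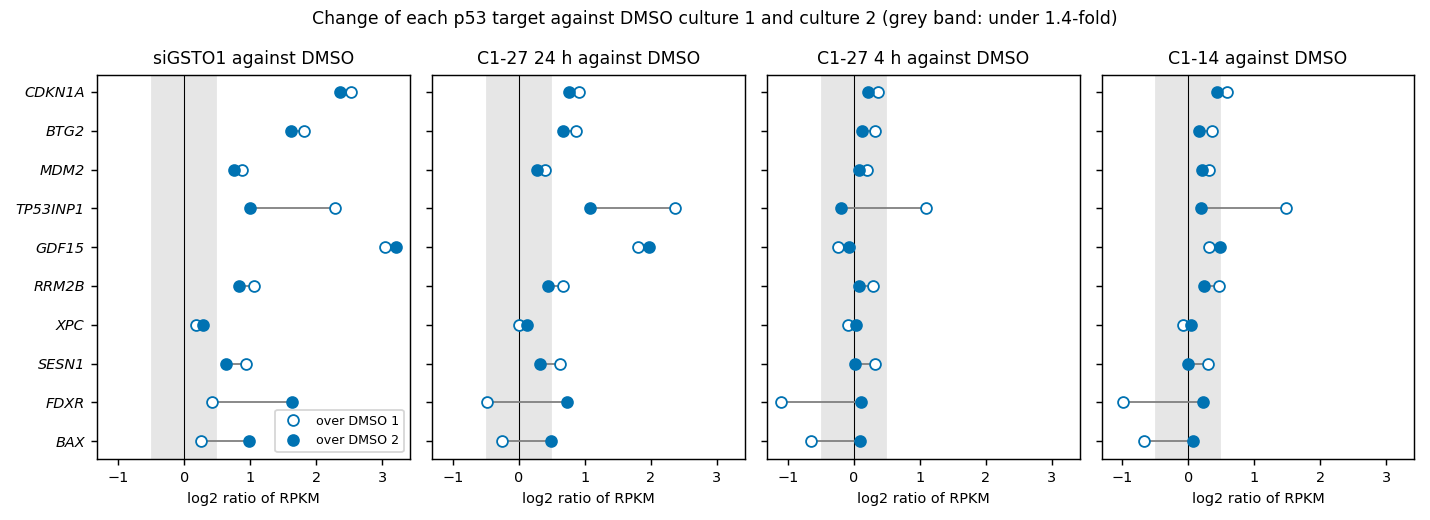
log2 ratio of RPKM of each treated library to DMSO culture 1 (open) and culture 2 (filled), with a line joining them and a grey band under 1.4-fold. Joined points are close together for 7 genes and far apart for TP53INP1, FDXR and BAX.

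C1-27 was followed at 4 h and 24 h at the same dose. At 4 h, 7 of the 10 genes met the RPKM filter. Of the 10, 0 were called 1.4-fold above the DMSO mean, where 0.457% of all genes that met the filter were. FDXR was called 1.4-fold lower, where 2.22% were. That lower value did not hold against DMSO culture 2, to which FDXR stood at 1.08. At 24 h, CDKN1A, GDF15, BTG2 and RRM2B were called 1.4-fold or more higher, 4 of the 10, beside 3.23% of all genes that met the filter. Called lower were 0, beside 3.49%. The filter was met by 8 of the 10, and TP53INP1, at 3.00-fold, was under it. RRM2B was at 1.35-fold against DMSO culture 2 alone. All members but FDXR and BAX, 8 of the 10, were higher with C1-27 at 24 h than in every 4 h library. Of all genes with a mean RPKM over 0.5 across the 6 libraries, 30.3% showed this order. Among the 8 members with such a mean, 6 showed this order. XPC met it by 1.00-fold over DMSO culture 1.

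Set directly against the 4 h library, C1-27 at 24 h was called 1.4-fold or more higher at CDKN1A, GDF15, BTG2 and FDXR. It was called lower at 0 of the 10. The RPKM filter was met by 8 of the 10, and TP53INP1, with a mean of 0.413 RPKM, was under it. Over all genes that met the filter the shares were 5.16% higher and 1.61% lower. GDF15 stood 4.15-fold higher, with a counting interval of 3.00 to 5.90, and TP53INP1 2.42-fold, with an interval of 2.07 to 2.83. CDKN1A was 1.46-fold and BTG2 1.45-fold higher. Under TMM scaling or DESeq2 size factors, 2 of the members that met the filter, GDF15 and FDXR, were past 1.4-fold. CDKN1A and BTG2 were not. Each time had 1 library, so the spread between cultures at 24 h is not known.

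Among the 24 h treatments, siGSTO1 lay above C1-27 for 9 of the 10 genes. Both were set against the same DMSO cultures, so their folds against DMSO are not independent of each other. The direct ratio of the siGSTO1 library to the C1-27 24 h library needs no DMSO culture. It was 1.4-fold or more at CDKN1A (3.06), GDF15 (2.35), BTG2 (1.93), FDXR (1.87) and BAX (1.42), 5 of the 10, and 0 members were lower by that much. Over all genes that met the filter, as 9 of the 10 members did, the shares were 8.73% higher and 4.6% lower. TP53INP1 stood at 0.946 with a counting interval of 0.827 to 1.08, so siGSTO1 and C1-27 were not distinguishable there by counting error alone.

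The analogue C1-14 was given at 10 μM and C1-27 at 1 μM, so their 4 h values are set side by side without a comparison. With C1-14, CDKN1A was 1.42-fold above the DMSO mean, the only member called higher, beside 3.71% of all genes that met the filter. TP53INP1, at 1.61-fold, was under the filter. FDXR was called lower, at 0.703 of the DMSO mean, beside 1.01%. Against DMSO culture 2 alone CDKN1A was at 1.35-fold and FDXR at 1.17-fold, so neither call held there. The other C1-14 ratios to the DMSO mean ran from 0.785 at BAX to 1.61 at TP53INP1, and those of C1-27 at 4 h from 0.652 at FDXR to 1.24 at TP53INP1.

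Scaling shifted the background by a small amount. Under TMM the median gene that met the filter lay at -0.12 on the log2 scale in the siGSTO1 library, and under DESeq2 size factors at -0.15. The median of the 10 members was then 0.81 and 0.78. BAX fell under 1.4-fold with siGSTO1 in both settings, at a log2 fold of 0.47 and 0.44. Across the filtered genes, 19.1% had DMSO cultures 1.4-fold or more apart, as 3 of the 10 members did.

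Regulators of the pathway were followed as well. The inhibitory MDM2 partner MDM4 was at 0.980 of the DMSO mean with siGSTO1 and 0.929 with C1-27 at 24 h. The damage kinase ATM was at 1.35 and 1.19, its partner kinase CHEK2 at 1.03 and 1.11, the p53-binding repair protein TP53BP1 at 1.26 and 1.19, and the deubiquitinase USP7, which stabilizes MDM2 and p53, at 0.847 and 0.971. None of these 5 genes was 1.4-fold from the DMSO mean in either 24 h library.

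A wider list of 35 other p53 targets, drawn up with results of these data known, was tested with edgeR's quasi-likelihood test on the counts, with Benjamini-Hochberg adjustment over 14431 genes. The 31 with enough counts were tested. Only the 2 DMSO libraries inform the spread, with 1 residual degree of freedom, and no source says whether they were grown apart, so the p-values measure only the spread between these samples. With siGSTO1, 4 of the 31 rose and 1 fell, beside 3% and 1.16% of all genes tested. By unadjusted p under 0.05 the counts were 9 and 1, and DESeq2 called 2 higher, BBC3 and SESN2, and 0 lower. No share over all genes is given here or below for counts by unadjusted p or by DESeq2. Those counts thus have no background beside them. The median log2 fold of the 31 was 0.56, beside 0.12 over all genes tested.

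Genes of apoptosis and of stress metabolism were among those that rose. In the apoptosis group edgeR called only BBC3 and APAF1, and the other tested genes of that group were not called. BBC3, which encodes the BH3-only killer PUMA, read 0.285 and 0.145 RPKM in DMSO, 0.157 with C1-27 at 4 h, 0.163 with C1-14, 0.307 with C1-27 at 24 h and 1.12 with siGSTO1. It rose 5.22-fold with siGSTO1 (adjusted p = 0.000108, edgeR, and 0.0198, DESeq2), and no other library came near that level. APAF1, the scaffold of the apoptosome, read 0.318 and 0.395 RPKM in DMSO, 0.388 with C1-27 at 4 h, 0.382 with C1-14, 0.719 with C1-27 at 24 h and 0.833 with siGSTO1. It rose 2.34-fold with siGSTO1 (adjusted p = 0.000992, edgeR, and 0.0555, DESeq2), and its 2.02-fold value with C1-27 at 24 h had an adjusted p of 0.0527 (edgeR). SESN2, a sestrin that restrains mTORC1, read 0.562 and 0.471 RPKM in DMSO, 0.504 with C1-27 at 4 h, 0.499 with C1-14, 0.880 with C1-27 at 24 h and 2.11 with siGSTO1. It rose 4.09-fold with siGSTO1 (adjusted p = 3.46e-07, edgeR, and 4.00e-05, DESeq2), and stood 1.70-fold above the DMSO mean with C1-27 at 24 h (adjusted p = 1.00, edgeR). As at GDF15, the 24 h libraries of SESN2 and APAF1 lay apart from all 4 h libraries.

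DRAM1, a lysosomal protein of autophagy, rose 2.09-fold with siGSTO1 (adjusted p = 0.0429, edgeR, 0.0523 without the filter on low counts, and 0.205, DESeq2). PLK2, a kinase of centriole duplication, fell to 0.468 of the DMSO mean (adjusted p = 0.000917, edgeR, and 0.730, DESeq2), the opposite direction to the other called genes. It read 5.26 and 10.8 RPKM in DMSO and 3.75 with siGSTO1, and also 4.61 with C1-27 at 24 h, while the 4 h treated libraries read 9.52 and 9.44. The DMSO cultures thus differed 2.04-fold at PLK2, although both lay above both 24 h libraries, and siGSTO1 stood at 0.711 and 0.348 of cultures 1 and 2. SFN, the G2 checkpoint protein 14-3-3 sigma, was 2.23-fold above the DMSO mean with siGSTO1 and did not pass the test (adjusted p = 0.293, edgeR).

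By the fold rule, which 25 of the 35 targets had enough signal to enter, 13 were 1.4-fold or more higher with siGSTO1 and 1 was lower, beside 10.5% and 6.48% of all genes that met the filter. Of the 13, 11 were past 1.4-fold against each DMSO culture taken singly. BBC3, APAF1 and DRAM1, all among the 13, met the filter only through the siGSTO1 library. Their DMSO means were 0.215, 0.357 and 0.391 RPKM. APAF1 met it through the treated library with C1-27 at 24 h as well. With C1-27 at 24 h, edgeR called 0 of the 31 in either direction, beside 0.159% of all genes tested higher and 0.118% lower. At unadjusted p under 0.05 there were 3 higher and 1 lower, and DESeq2 called 0. With C1-27 at 4 h, edgeR called 0 of the 31, beside 0.0139% higher and 0% lower, with 0 at unadjusted p under 0.05 and 0 by DESeq2. With C1-14, edgeR called 0 of the 31, beside 0.111% higher and 0.00693% lower, with 1 higher at unadjusted p under 0.05 and 0 by DESeq2. SFN (1.90), RPS27L (1.64), a ribosomal protein paralogue, and TRIAP1 (1.51), an inhibitor of apoptosis, were 1.4-fold above each DMSO culture with C1-14. TRIAP1 stood at 1.04 with siGSTO1 and 1.07 with C1-27 at 24 h.

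**Figure D4:**
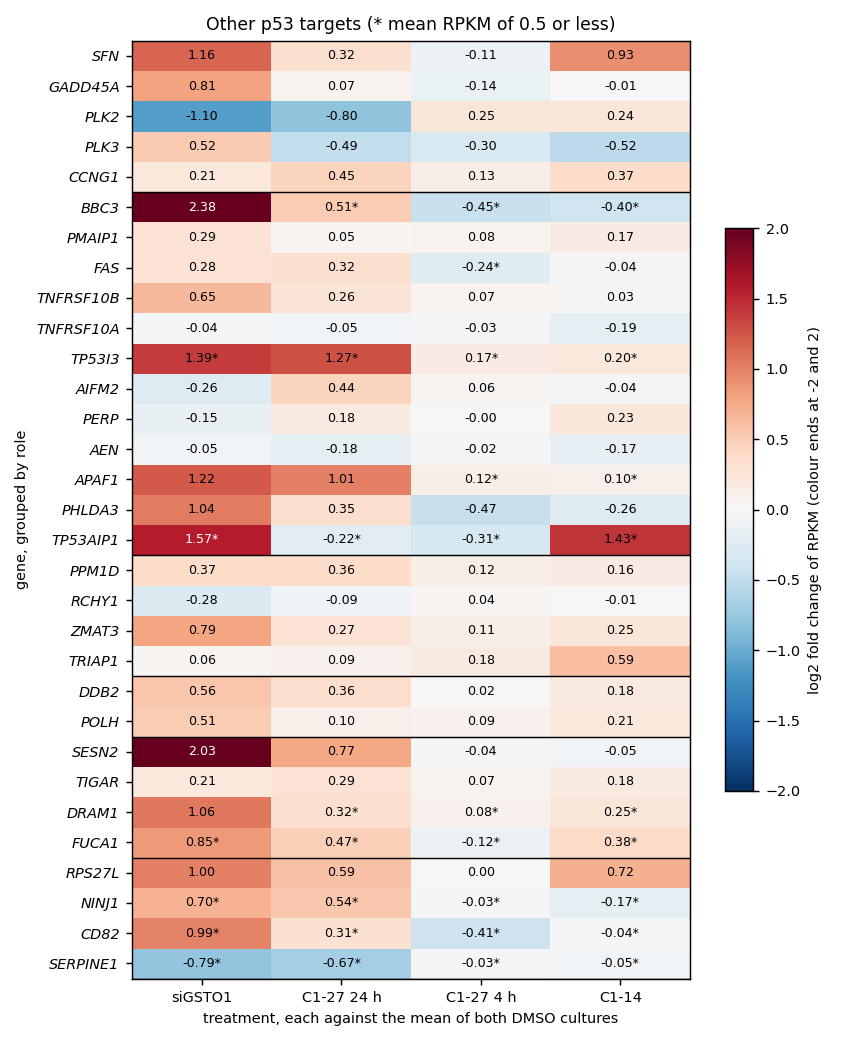
log2 fold of RPKM against the DMSO mean for the 31 tested p53 targets outside the 10 members, with 1 row per gene, grouped by role (arrest, apoptosis, feedback, repair, metabolism, other), and 1 column per treatment. BBC3, SESN2 and APAF1 are the darkest unstarred rows for siGSTO1, PLK2 is the called gene in blue, and stars mark a mean RPKM of 0.5 or less.

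Genes that p53 lowers through p21 and the DREAM repressor complex were read from a list of 20, which includes cyclins, mitotic kinases and replication genes. With siGSTO1, edgeR called 0 higher and 1 lower, with 0 and 3 at unadjusted p under 0.05 and 0 by DESeq2. The lower gene, named after its value was seen, was MCM5, a subunit of the replicative helicase, which fell to 0.594 of the DMSO mean (adjusted p = 0.0362, edgeR, and 0.150, DESeq2). The DMSO cultures differed 1.42-fold at MCM5, and siGSTO1 stood at 0.506 and 0.717 of cultures 1 and 2. For each of the other treatments edgeR and DESeq2 called 0 of the 20, with 0 at unadjusted p under 0.05. The median log2 fold of the 20 was -0.04 with siGSTO1 and -0.05 with C1-27 at 24 h, beside 0.12 and 0.05 over all genes tested. CDC25C, a phosphatase that opens mitosis, was 1.47-fold above the DMSO mean with C1-27 at 24 h. It met the filter only through the treated library, as its DMSO mean was 0.459 RPKM. The list thus held few genes past the test, on a background of 1.16% lower with siGSTO1.

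**Figure D5:**
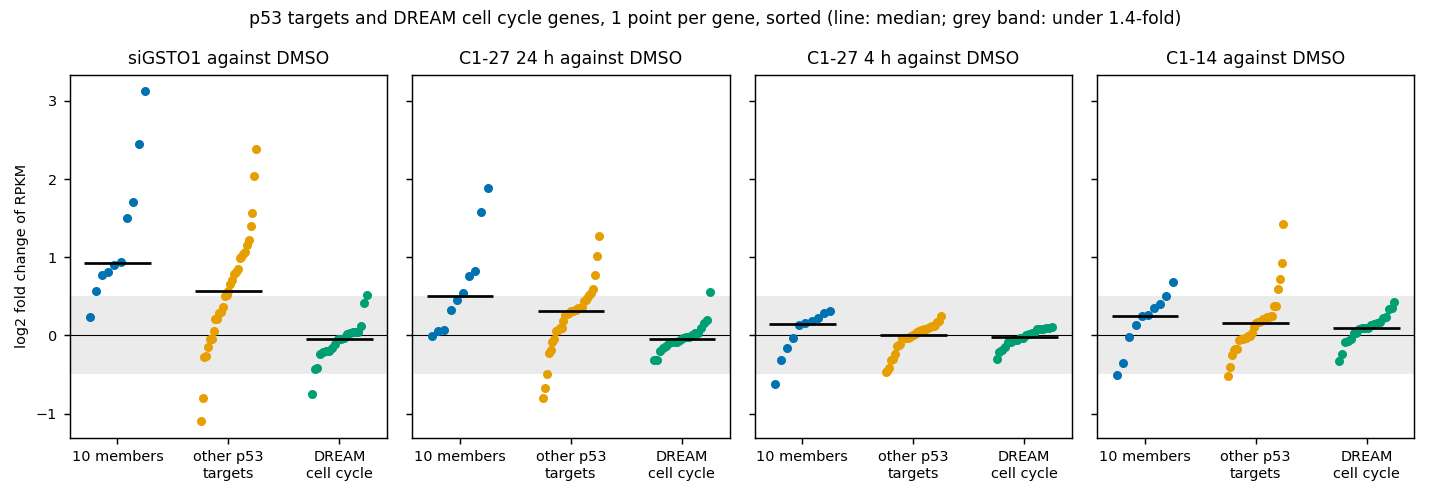
log2 fold of RPKM against the DMSO mean for the 10 members, the 31 tested other p53 targets and the 20 DREAM genes in each treatment, with 1 point per gene in rising order, a line at the median and a grey band under 1.4-fold. The members' median is 0.92 with siGSTO1, and the DREAM genes lie mostly within the band in all 4 panels.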

How the data were processed

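Bru-seq of HCT116 cells gave 1 table of genes per library, 6 in all. Per the labels, RNA was labelled with bromouridine for 30 min, captured with an anti-BrdU antibody and made into libraries with the Illumina TruSeq kit. The submitters' processing notes name CASAVA 1.8.2, Bowtie 0.12.8, TopHat 1.4.1, bedtools 2.16.2 and the hg19 build, without their roles. The deposited tables, which have no header, hold for each gene and strand an estimated count of reads and a signal (coverage) value. They also hold an RPKM that the authors scaled by gene length and library size. Signal and RPKM together gave the library totals behind the count ratios, their intervals and the rescaled settings. The counter and annotation are not given in the sources used here. Estimated counts were rounded before the count tests. Groups came from the sample titles. The study's methods can be read as 4 h for siGSTO1, and the label's 24 h was used.

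The members and gene lists were chosen with earlier results of these data known. Each treated library was set against the mean RPKM of both DMSO libraries, with the study's cut-offs on gene size over 300 bp, mean RPKM over 0.5 and 1.4-fold, and for 2 pairs of treated libraries directly. Exact Clopper-Pearson 95% intervals of count ratios cover counting error only and not the spread between cultures. Reads carry no molecular identifiers, so copies of a molecule are not told apart in the counts or the intervals. The other p53 targets and the DREAM genes were tested in edgeR 4.0.16 (R 4.3.3; TMM, glmQLFit and glmQLFTest on all 6 libraries in 5 groups, genes with at least 10 counts in at least 2 libraries, Benjamini-Hochberg adjusted p under 0.05), with DESeq2 1.42.0 as an alternative. Both were tested on simulated data. The text names every member, GSTO1, 5 regulators of the pathway (another listed gene is not reported here) and, per treatment, up to 6 p53 targets and up to 4 DREAM genes of largest fold past 1.4-fold against each DMSO culture singly. PLK2, BBC3, APAF1, SESN2 and DRAM1 meet that rule, and MCM5 does not. The adjacent-pair promoter search, the marker cut-offs and the antisense limits were set after values were seen. Promoters were matched by symbol, and their GRCh38.p14 coordinates were not mixed with the hg19 ones. TIGAR is listed under an older symbol.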

Additional observations from a re-analysis of the deposited data

Results flagged for a closer look

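GDF15 lay on opposite sides of the DMSO cultures in the C1-27 libraries: at 4 h it lay just below both (0.388 RPKM, beside 0.409 and 0.458) and at 24 h above both (1.61 RPKM), and the 24 h library was 4.15-fold above the 4 h library. The 4 h value was within counting error of the DMSO libraries (44 counts, counting interval of the ratio 0.610 to 1.32). The difference was not tested, because each time had 1 library.

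Some antisense counts over the members stood 1.4-fold or more above the higher DMSO culture by RPKM, in data that the comparisons above did not use. They were 58 over MDM2 with siGSTO1, beside 31 and 36 in DMSO, and 73 over SESN1 with siGSTO1, beside 29 and 67. Other such counts were 5 over BAX with siGSTO1, beside 0 and 0, and 4 over CDKN1A with C1-14, beside 0 and 1. Those counts are close to the limit of 3 that a count of 0 allows. Antisense counts of 2 or fewer that met the same rule are not listed. Pooled over the 6 libraries, antisense reads over each of these 4 genes were at most 3.98% of all reads there, and in the siGSTO1 library they were 4.51% over SESN1.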

How the results depend on the processing

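Leaving out a DMSO library moved the count of members 1.4-fold lower with C1-27 at 4 h to between 0 and 2 (1 with both) and with C1-14 to between 0 and 2 (1 with both), and that of members higher with C1-14 to between 0 and 1 (1 with both). FDXR and BAX made up these lower counts. Without DMSO replicate 2, BAX stood at a log2 fold of -0.64 with C1-27 at 4 h and -0.67 with C1-14. The log2 fold of FDXR lay between -1.10 and 0.11 with C1-27 at 4 h and between -0.99 and 0.22 with C1-14. A stricter filter, mean RPKM over 1, gave 0 lower for C1-27 at 4 h and 0 lower for C1-14. TMM scaling, DESeq2 size factors and a pseudocount of 0.1 RPKM each gave 0 lower for C1-14. For C1-14 higher the pseudocount gave 0 and no RPKM filter gave 2. For C1-27 at 24 h over 4 h, TMM scaling, DESeq2 size factors and the stricter filter each gave 2 higher (4 in the main setting). The count of members higher with siGSTO1, 7 in the main setting, was 6 under TMM scaling and 6 under DESeq2 size factors. BAX lost its call under both. The count was 5 without DMSO replicate 2 and 9 without the RPKM filter. For the other p53 targets with siGSTO1, DESeq2 called 2 higher and 0 lower, and the 1.4-fold call gave 13 higher. DRAM1 lost its call without the filter on low counts. That call gave 3 higher and 2 lower for C1-27 at 24 h and 3 higher and 1 lower for C1-14, where edgeR called 0. For the DREAM genes it gave 1 higher with siGSTO1 and 1 higher with C1-27 at 24 h, and the 1 gene lower with siGSTO1 became 0 without the filter on low counts and 0 by DESeq2. Leaving out a DMSO library leaves edgeR no residual degrees of freedom, so it was not run there. No paired analysis was possible because the groups share no more than 1 replicate number. The precision of GDF15 is limited by its counts, 32 in the smallest library, and the causes of these movements were not tested.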
